A study of Mus musculus with 16 samples.

Results

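Melanomas of the iMet mouse were compared with melanomas of the iHRAS* mouse across all genes on Affymetrix mouse expression arrays (M430A_2). The comparison used 6 iMet and 6 iHRAS* tumour arrays, 12 of the 16 arrays of the series. They were chosen by their titles alone, and the remaining 4 arrays, of melanocytes with no disease, served only as a reference level. The iMet tumours carried the genotype Tyr-rtTA;Tet-Met;Ink4a/Arf-/- and the iHRAS* tumours, titled iRas, the genotype Tyr-rtTA;Tet-HRASV12G;Ink4a/Arf-/-. In both models the tyrosinase promoter drives the tetracycline-controlled activator rtTA in the melanocyte lineage, the activator switches on the Met or the activated HRAS transgene, and the Ink4a/Arf locus is deleted. The tumours therefore share the activator and the deletion and differ by the transgene. Ages, sexes, doxycycline schedules and the number of animals are not given in the sources used here, and separate animals are not stated, so p-values measure the spread between these samples, which may be technical. The sample labels speak of melanoma cells that were isolated, whereas the design text speaks of RNA from cutaneous melanomas. The design text frames the models as able or unable to metastasise, and the comparison asks which transcripts separate them.

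MET is the cell surface receptor of hepatocyte growth factor and signals through several branches, among them RAS with the MAP kinases and PI3 kinase. HRAS is a small GTPase that acts one step further inside the cell, and its activated form stays bound to GTP and keeps these branches on without a receptor. Melanocytes arise from the neural crest, the embryonic tissue that also gives rise to Schwann cells and sensory neurons, and melanomas are known to express genes of these relatives. The Ink4a/Arf locus encodes an inhibitor of the CDK4 and CDK6 kinases and an activator of p53, so that both of these brakes on division lack an upstream input in the tumours of either model.

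The label melanoma was set against defining genes of the melanocyte lineage. The pigment enzyme genes Dct, Tyr and Tyrp1 were at or under the dim level, the 40th percentile of signal (log2 6.21), on every iMet array, and were above it on 2, 1 and 1 of the 6 iHRAS* arrays. Pmel, which encodes the fibrils of the pigment granule, exceeded that level on 0 iMet and 6 iHRAS* arrays. Mitf, the lineage's master regulator, exceeded it on 6 iMet and 5 iHRAS* arrays, and Sox10, its activator, on 5 and 6. The lineage regulators were thus measured in both models, while the pigment enzymes were largely dim.

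Of 12393 genes represented on the array, 8058 exceeded the dim level on at least 6 of the 12 tumour arrays and were tested. Signals below are log2 values after quantile normalization, and differences are iMet minus iHRAS* on that scale, with their standard error (SE). A gene was called where limma, a linear model with a moderated variance, gave an adjusted p under 0.05. In iMet tumours 905 genes were higher, which is 11.2% of those tested, and 782 were lower, which is 9.7%, so that 20.9% were called in either direction. Counts of called list members below are to be read against these shares. The measured decreases reached further: 133 genes were lower by more than 2 log2 units and 36 were higher by as much. Genes under the dim level in 1 model enter these counts as measured, though signals there carry little order. The median difference over all tested genes was 0.03, and the middle 90% of differences lay between −1.15 and 0.94. Every iMet array was above every iHRAS* array for 5.83% of tested genes and below for 4.89%. When each of the 12 arrays was left out in turn, 614 of the 905 increases (67.8%) and 541 of the 782 decreases (69.2%) were called each time. Genes described below passed in all 12 of these fits unless a number of fits is given. For 31 of them (Acpp, Cdh1, Col11a1, Crmp1, Cysltr1, Epcam, Erbb3, Fbn2, Gata3, Gdnf, Hoxb2, Il11, Kif23, Lgi4, Lgr5, Ltc4s, Ncapg, Ndn, Nefl, Nkd2, Prss22, Rfc4, Sema3b, Sema5a, Slc14a1, Slc39a8, Socs1, Tfeb, Tm7sf2, Zfpm1 and Zfpm2) the median of one model lay at or under the dim level, and their differences are as measured, on signals that carry little order there.

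**Figure D1:**
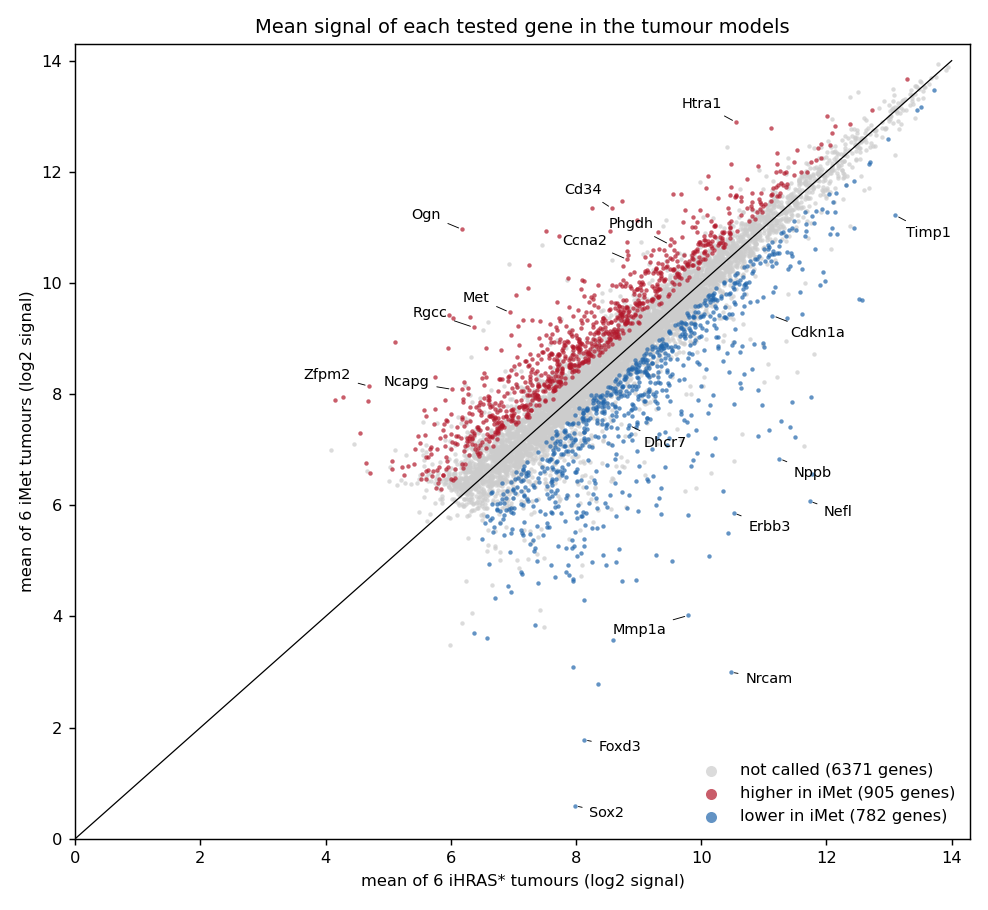
Mean log2 signal of each of the 8058 tested genes in the 6 iMet tumours (vertical axis) against the 6 iHRAS* tumours (horizontal axis). Red points are the 905 genes called higher in iMet tumours, blue points the 782 called lower and grey points the rest. The line marks equal signal, and the genes farthest below it (Nrcam, Foxd3, Sox2, Mmp1a, Nefl) lie farther from it than the genes farthest above. The iMet signals of Nrcam, Foxd3, Sox2 and Mmp1a are all under the dim level of 6.21, so the size of these distances is uncertain.

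Several measures per array moved with the groups or set single arrays apart. The first principal component of the tumours held 37.9% of the variance and separated the groups, and the second, with 17.9%, set iHRAS* tumours 2 and 3 apart from the other 10. Xist was low and the Y-linked gene Eif2s3y was present in iHRAS* tumours 5 and 6 alone. The spike-in control bioB was at log2 8.58 to 9.09 on the iMet arrays and 7.47 to 8.21 on the iHRAS* arrays, without overlap, and the brighter bioD control was at 11.25 to 11.70 and 11.36 to 11.74. The mean of 10 keratinocyte markers was 4.95 to 9.26 on iMet and 8.87 to 10.87 on iHRAS* arrays, and that of 8 endothelial markers 7.63 to 9.19 and 6.56 to 7.68. With both marker means as covariates, 22 genes were called higher and 41 lower. Of the genes called in the comparison itself, the sign stayed the same for 897 of 905 increases and 772 of 782 decreases, the median difference moved from 0.75 to 0.73 and from −0.86 to −0.76, and the median SE grew by factors of 1.87 and 1.88. In RNA of bulk samples, fewer cells of a type and less RNA per cell cannot be told apart.

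DNA replication and mitosis held many of the increases. Before a cell divides, licensing factors load the MCM helicase onto origins, polymerases with their sliding clamp copy the DNA, and kinesins and kinetochores then pull the chromosomes apart. Of 20 tested licensing genes 15 were higher in iMet tumours and 0 lower (list median 0.71), of 33 polymerase, clamp and loader genes 23 were higher and 1 lower (0.73), of 34 kinetochore and centromere genes 22 were higher and 0 lower (0.88), and of 9 mitotic kinesins 9 were higher (1.16). These shares stood against 11.2% of all tested genes called higher, and against a median of 0.03. Leaving out any 1 array kept the licensing count at 13 to 16, the polymerase count at 20 to 26, the kinetochore count at 19 to 26 and the kinesin count at 8 or 9. With the marker means as covariates the list medians were 0.81, 0.82, 0.78 and 1.11, while 1, 1, 1 and 0 members stayed called.

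The promoters of 4 of these genes are shown because members of both steps were higher together and the motifs known for each step can be looked up in them. Each runs from 250 bases before to 50 bases after the start of the gene as RefSeq gives it for GRCm38.p6, on the strand of the gene. Capitals mark the CCAAT box (CCAAT, or ATTGG on the other strand), the cell cycle homology region (TTTGAA) where a mitotic gene is shown, and E2F motifs (TTTGGCGC, TTTCGCGC or TTTCCCGC on either strand) where a replication gene is shown. The CCAAT box is bound by the factor NF-Y, the homology region by the DREAM and B-MYB complexes, and E2F motifs by the E2F factors that the retinoblastoma protein restrains.
Ccnb2 promoter, chr9:70421505-70421804, minus strand: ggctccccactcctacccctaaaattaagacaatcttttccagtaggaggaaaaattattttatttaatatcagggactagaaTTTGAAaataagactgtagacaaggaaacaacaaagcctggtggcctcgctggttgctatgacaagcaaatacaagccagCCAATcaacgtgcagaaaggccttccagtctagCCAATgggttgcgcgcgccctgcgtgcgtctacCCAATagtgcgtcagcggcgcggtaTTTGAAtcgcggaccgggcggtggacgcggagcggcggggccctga
Cenpf promoter, chr1:189688037-189688336, minus strand: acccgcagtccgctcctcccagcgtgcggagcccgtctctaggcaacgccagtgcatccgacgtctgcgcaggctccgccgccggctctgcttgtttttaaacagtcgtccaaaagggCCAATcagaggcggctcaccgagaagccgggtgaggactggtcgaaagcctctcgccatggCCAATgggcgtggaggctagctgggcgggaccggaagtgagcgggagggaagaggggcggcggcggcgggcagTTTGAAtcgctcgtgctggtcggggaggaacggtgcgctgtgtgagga
Mcm5 promoter, chr8:75109259-75109558, plus strand: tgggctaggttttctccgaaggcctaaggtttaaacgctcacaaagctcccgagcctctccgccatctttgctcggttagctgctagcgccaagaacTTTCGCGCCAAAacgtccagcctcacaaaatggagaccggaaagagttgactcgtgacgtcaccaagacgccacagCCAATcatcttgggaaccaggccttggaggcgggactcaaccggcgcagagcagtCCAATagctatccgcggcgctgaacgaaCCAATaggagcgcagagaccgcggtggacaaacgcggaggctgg
Mcm6 promoter, chr1:128359656-128359955, minus strand: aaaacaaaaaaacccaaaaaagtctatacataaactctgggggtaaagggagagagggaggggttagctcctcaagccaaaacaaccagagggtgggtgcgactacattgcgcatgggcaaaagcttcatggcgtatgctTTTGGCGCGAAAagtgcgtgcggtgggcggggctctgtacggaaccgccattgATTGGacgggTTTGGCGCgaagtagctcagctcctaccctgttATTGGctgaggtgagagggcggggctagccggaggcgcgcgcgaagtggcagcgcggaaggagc

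In the Ccnb2 promoter 3 CCAAT boxes began at −87, −54 and −21 from the start site and a homology region followed at 4, with another at −167. Cenpf had CCAAT boxes at −132 and −71 and a homology region at 2. Mcm5 held a pair of E2F motifs that overlap each other, at −153 and −149, and CCAAT boxes at −77, −22 and 6, and Mcm6 held E2F motifs at −110, −106 and −47, the first pair overlapping, and CCAAT boxes at −57 and −14. Promoters were found for 6543 of the 8058 tested genes, taking the first listed start of each gene. The homology region occurred in 18.1% of all 27025 promoters of the table, in 11.5% of those of tested genes, in 19.6% of those of genes higher in iMet tumours and in 8.52% of those of genes lower. It occurred in 26 of the 48 promoters (54.2%) of mitosis genes that were higher and in 8 of 39 (20.5%) of mitosis genes that were not. Mitosis genes here pool the lists of kinesins, kinetochore genes, cohesin, condensin and topoisomerase genes, and cyclins, CDKs and mitotic kinases. The cyclin list also holds genes of other phases, such as Ccnd1, and 16 of its 43 tested genes were higher, against 9 of 9 kinesins. These shares therefore compare sets of different make-up. Replication genes pool the licensing and polymerase lists. E2F motifs occurred in 1.91% of all promoters, 3.99% of tested, 7.46% of higher and 1.48% of lower genes, in 11 of 32 promoters (34.4%) of replication genes that were higher and in 3 of 13 (23.1%) of those that were not. In mitosis genes E2F motifs occurred in 16.7% of promoters of higher and 20.5% of other genes. For the CCAAT box the shares were 37.9%, 38% and 44.9% over all promoters, tested genes and higher genes and 36.6% over lower genes. A match describes the letters and is not evidence of binding.

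Among the genes whose promoters are shown, Ccnb2, a cyclin of mitotic entry, ran from 9.40 to 10.12 (median 9.69) in iMet tumours and from 7.45 to 8.79 (8.31) in iHRAS* tumours. The difference was 1.51 ± 0.20 (SE), or 2.84-fold (adjusted p = 0.00051), and the groups did not overlap. Cenpf, a kinetochore protein, was at 9.10 to 9.64 (9.23) against 7.06 to 8.42 (7.76), higher by 1.56 ± 0.20. The helicase subunits Mcm5 and Mcm6 were at 8.83 to 9.75 (9.26) against 7.79 to 8.29 (8.09) and at 9.76 to 10.35 (10.23) against 8.49 to 9.61 (9.01), differences of 1.19 ± 0.17 and 1.08 ± 0.18. In all 4 genes the lowest iMet tumour exceeded the highest iHRAS* tumour, as in 449 of the 905 genes called higher.

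Ncapg, a subunit of the condensin ring that compacts mitotic chromosomes, was at 7.48 to 8.59 (8.07) in iMet and 5.73 to 6.74 (5.93) in iHRAS* tumours (difference 2.06 ± 0.22, adjusted p = 0.00015), with 5 of the 6 iHRAS* tumours under the dim level. Kif23, a kinesin of the dividing midbody, was higher by 2.13 ± 0.44, and the spindle checkpoint kinase gene Bub1b by 1.67 ± 0.26. The outer kinetochore gene Ndc80 and the inner kinetochore gene Cenpk were at or under the dim level in every iHRAS* tumour, and their increases are at least 2.04-fold and 2.07-fold when set against that level. Of 43 tested cyclin, CDK and mitotic kinase genes 16 were higher and 3 lower. Ccna2 (1.61 ± 0.19), the centriole kinase gene Plk4 (1.47 ± 0.19) and Plk1 (1.40 ± 0.23) were higher, and Ccnd1, the cyclin of the growth signal in G1, was among the lower at −0.61 ± 0.18 (adjusted p = 0.028; called in 8 of 12 fits).

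On the replication side Rfc4, a loader of the sliding clamp, was at 7.20 to 8.06 (7.49) in iMet and 5.26 to 6.27 (6.02) in iHRAS* tumours, higher by 1.60 ± 0.20. The clamp gene Pcna was bright in both, at 12.02 to 12.37 (12.07) against 10.93 to 11.65 (11.12), and was 1.90-fold higher. Gmnn, the inhibitor that keeps origins from firing again, and the kinase gene Cdc7, which fires them, were higher by 1.42 ± 0.17 and 1.40 ± 0.20. Pold4, the smallest subunit of polymerase delta, went the other way without overlap, at 8.23 to 8.78 (8.58) against 9.16 to 10.25 (9.77), a difference of −1.19 ± 0.20 (adjusted p = 0.0016). Foxm1, the transcription factor of the mitotic genes, was higher by 0.92 ± 0.16.

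Genes that keep chromosomes intact followed in smaller numbers. Of 23 cohesin, condensin and topoisomerase genes 12 were higher and 0 lower, of 22 homologous recombination and Fanconi genes 11 were higher and 0 lower (median 0.49), and of 26 other repair genes 7 were higher and 0 lower. Leaving out any of iMet arrays 1, 2 and 3 or iHRAS* array 5 left 4 of these other repair genes. Brca1, of homologous recombination, was higher by 0.82 ± 0.18. Hells and Uhrf1, which help to copy DNA methylation onto new strands, were higher by 1.17 ± 0.17 and 0.90 ± 0.21.

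Several genes induced by p53 were lower in iMet tumours. Of 30 tested p53 targets and regulators 10 were lower and 1 higher, against 9.7% of all genes called lower, and the list median was −0.28; with the values as deposited it was −0.06, where the median over all genes was 0.23. Cdkn1a, the CDK inhibitor p21, was at 8.66 to 10.08 (9.36) in iMet and 10.86 to 11.61 (10.95) in iHRAS* tumours, 3.31-fold lower in the former without overlap (difference −1.72 ± 0.25, adjusted p = 0.00076). The BH3-only death gene Pmaip1 was above the dim level in all iHRAS* tumours, at 7.34 to 8.94 (8.08), and at or under it in all iMet tumours, which makes it at least 3.79-fold lower. Phlda3 (−1.25 ± 0.17), Ccng1 (−0.88 ± 0.11), Trp53inp1 (−1.06 ± 0.20) and Mdm2, the ligase that degrades p53 (−0.81 ± 0.15), were lower too. Ckap2, a spindle protein, was the member that was higher, at 1.30 ± 0.23. Perp, which is both a p53 target and a desmosome protein of epithelia, was lower by 2.83 ± 0.73, and with the marker means as covariates its difference was 0.16.

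The INK4 inhibitors did not move together. Cdkn2b, which lies beside the deleted locus and encodes p15, was at 7.96 to 9.46 (8.50) in iMet and 9.46 to 10.33 (9.91) in iHRAS* tumours, lower by 1.37 ± 0.26 in iMet tumours (adjusted p = 0.0033). Cdkn2c, which encodes p18, was higher without overlap, at 9.96 to 10.97 (10.76) against 9.12 to 9.92 (9.35), by 1.19 ± 0.19. Cdkn2a itself was at 1.08 to 4.66 and 3.58 to 4.69, far under the dim level, and was not tested in the fit. The sources used here do not place its probe set inside or outside the deletion, so it checks nothing.

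Nucleotide and serine metabolism leaned the same way as replication. Dividing cells need new purines and pyrimidines, whose synthesis draws one-carbon units from serine. Of 28 purine and pyrimidine synthesis genes 10 were higher and 1 lower (median 0.42), and of 14 serine, glycine and one-carbon genes 5 were higher and 0 lower (median 0.27). Phgdh, the first enzyme of serine synthesis, was at 10.49 to 10.82 (10.71) in iMet and 9.24 to 9.76 (9.50) in iHRAS* tumours, 2.29-fold higher (difference 1.19 ± 0.11, adjusted p = 4.6e-05). Mthfd2, a mitochondrial one-carbon enzyme, was higher by 1.08 ± 0.23 and Slc1a4, a carrier of serine and alanine, by 1.31 ± 0.19. Tk1, the thymidine kinase, was at 9.31 to 10.19 (9.83) against 7.23 to 8.99 (8.21), higher by 1.50 ± 0.29, and the purine enzymes Paics and Ppat were higher by 0.81 ± 0.11 and 0.87 ± 0.12. None of these 6 genes overlapped between the groups, as was so for 449 of the 905 genes called higher. List members were named for their small p, which favours such genes. Adssl1, the muscle form of an AMP synthesis enzyme, was the member that was lower, at −1.77 ± 0.48.

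Genes of protein and RNA synthesis showed many small increases or none. Of 74 tested mitochondrial ribosomal protein genes 13 were higher and 1 lower (median 0.19), of 50 ribosome biogenesis genes 7 were higher and 1 lower (0.16) and of 99 splicing factor and hnRNP genes 12 were higher and 1 lower (0.20), shares close to the 11.2% of all genes. Mrps6 was higher by 1.21 ± 0.19, the nucleolar gene Nop58 by 1.02 ± 0.21 and the splicing gene Snrpb2 by 0.90 ± 0.12. Of 42 cytosolic ribosomal protein genes 1, Rps6, was called, and the list median of 0.06 became −0.05 with the values as deposited. Of 59 subunits of respiratory complexes 10 were higher and 1 lower, but 4 to 6 were higher when any of iMet arrays 1, 3 and 5 or of iHRAS* arrays 1, 5 and 6 was left out. Uqcrb, of complex III, had medians of 13.13 and 12.72 and was higher without overlap by 0.38 ± 0.08. Chaperone genes went both ways, with 9 of 82 (11%) higher and 5 (6.1%) lower. Without iMet array 1, 5 were higher. When any of iMet arrays 2, 3, 5 and 6 or of iHRAS* arrays 2 and 4 was left out, 3 were lower. Hspa4l was higher by 1.82 ± 0.24 and Dnajb9, induced by stress of the endoplasmic reticulum, was lower by 0.72 ± 0.17.

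**Figure D2:**
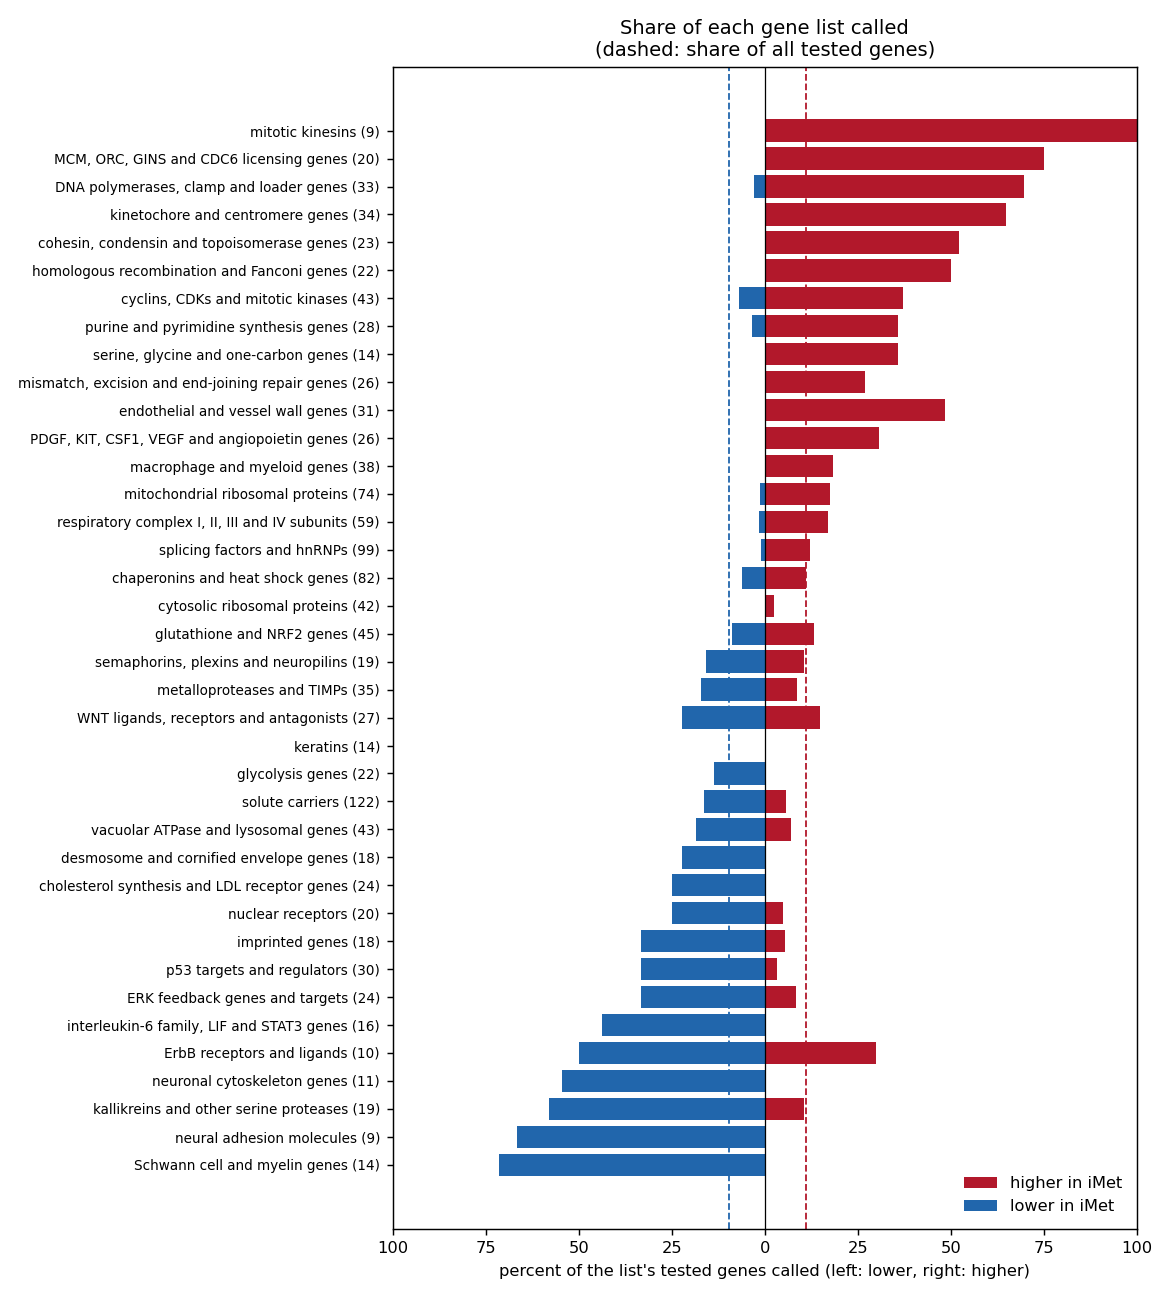
Percent of the tested genes of each gene list that were called higher (red, to the right) or lower (blue, to the left) in iMet tumours; the number of tested genes is in parentheses, and dashed lines mark the 11.2% and 9.7% of all tested genes. Lists of replication and mitosis extend far to the right of the dashed line. The neural adhesion, neuronal cytoskeleton, myelin, serine protease and p53 lists extend far to the left.

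Cholesterol and lipid genes were on the lower side. Cholesterol is built from acetyl-CoA under control of the SREBP factors. Of 24 tested cholesterol synthesis and LDL receptor genes 6 were lower and 0 higher (median −0.45, or −0.22 with the values as deposited against a median of 0.23 over all genes). Dhcr7, which carries out the last step of the pathway, was at 7.25 to 7.57 (7.46) in iMet and 8.59 to 9.09 (8.84) in iHRAS* tumours, 2.64-fold lower with little spread in either group (difference −1.40 ± 0.11, adjusted p = 1.6e-05). Cyp51, Msmo1, Nsdhl and Tm7sf2, which act in the same late part of the pathway, were lower by 0.61 to 1.10, and Srebf1, which encodes an SREBP factor, by 0.50 ± 0.14 (called in 8 of 12 fits). Of 23 fatty acid synthesis genes 5 were lower and 1 higher, a count that was 2 without iMet array 1, 3 or 4 and 3 without iMet array 6 or any iHRAS* array but 5. Scd2, a desaturase, was lower by 0.87 ± 0.13 without overlap, and the elongase gene Elovl5 was higher by 0.59 ± 0.15.

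Membrane carriers were among the larger families with decreases. Of 122 tested solute carriers 20 (16.4%) were lower and 7 (5.74%) higher (median −0.15, or 0.09 with the values as deposited). Over all tested genes the shares were 9.7% and 11.2%. Leaving out any of iMet arrays 1, 3 and 4 or iHRAS* array 4 left 3 or 4 higher carriers. The urea carrier Slc14a1 was at 3.33 to 10.62 (5.73) in iMet and 11.29 to 12.68 (11.56) in iHRAS* tumours, and 1 iMet tumour reached 10.62, near the lowest iHRAS* tumour. The phosphate carrier Slc20a2 was at 8.84 to 9.02 (8.94) against 10.13 to 10.92 (10.54), 3.00-fold lower, and Slc22a23, an orphan member of the organic ion carriers, 5.15-fold lower. The zinc carrier families were looked at after their values were seen. Of 9 tested Slc39a importers 3 were lower and 0 higher, and of 6 tested Slc30a genes, which move zinc out of the cytosol, 2 were higher and 0 lower. Slc39a8 and Slc39a6 were lower, by 1.74 ± 0.24 and 0.98 ± 0.15, and Slc30a5 and Slc30a4 were higher, by 0.80 ± 0.13 and 0.72 ± 0.20 (the last called in 10 of 12 fits). The sulphate carrier Slc26a2 was lower by 1.62 ± 0.19 and the glucose carrier Slc2a3 by 1.07 ± 0.27.

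Redox and energy genes showed no common direction. Of 45 glutathione and NRF2 genes 6 (13.3%) were higher and 4 (8.89%) lower, near the 11.2% and 9.7% of all tested genes. Gstm1 had medians of 9.19 in iMet and 7.64 in iHRAS* tumours and was higher without overlap by 1.53 ± 0.22, whereas its neighbour in the same enzyme family, Gstm2, had medians of 7.44 and 8.52 and was lower by 1.03 ± 0.19; probe sets of such near-identical genes can detect each other. Ggct, which recycles glutathione fragments, was 19.4-fold lower, at 5.94 to 8.39 (7.41) against 10.87 to 12.09 (11.44). The malic enzymes also divided, with the cytosolic Me1 higher by 1.45 ± 0.25 and the mitochondrial Me2 lower by 1.10 ± 0.20. Of 22 glycolysis genes 3 (13.6%) were lower and 0 higher, among them Hk1, the first enzyme, at −1.19 ± 0.21. Of 43 vacuolar ATPase and lysosomal genes 8 (18.6%) were lower and 3 (6.98%) higher. Tfeb, the regulator of lysosomal genes, was lower by 1.00 ± 0.15.

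Genes of Schwann cells, neural adhesion, the neuronal cytoskeleton and the neural crest held many of the large decreases. Of 14 tested Schwann cell and myelin genes 10 were lower (median −2.49), of 9 neural adhesion molecules 6 (−1.49) and of 11 neuronal cytoskeleton genes 6 (−1.58); 0 were higher. The counts ran from 9 to 11, 6 to 7 and 5 to 7 when single arrays were left out, and 4, 2 and 1 genes stayed called with the marker means as covariates, at medians of −1.73, −1.89 and −0.99. Other neuronal lists were small and did not share this decrease. Of 7 potassium channels 2 were lower and 1 higher (0.10), and of 6 sodium, calcium and TRP channels 1 and 1 (0.23). Of 4 transmitter receptors 0 were lower and 1 higher (−0.02), and of 6 synaptic vesicle genes 2 and 0 (−0.40). Foxd3, a neural crest factor, was at 1.46 to 2.19 (1.76) in iMet and 7.18 to 8.85 (8.22) in iHRAS* tumours, and had the smallest adjusted p of the comparison (3.3e-08). Foxd3 passed the dim filter through its iHRAS* arrays alone, as its iMet signals lay far under the dim level. The p therefore rests in part on signals that carry little order, and its rank is not a measure of the decrease. The decrease is given as at least 3.78-fold against that level. Sox10, which specifies melanocytes and glia, remained above the dim level in 5 iMet tumours, at 6.08 to 7.66 (6.86) against 9.45 to 11.44 (9.95), and was 9.59-fold lower.

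Adhesion molecules of axons followed. Nrcam was at 0.77 to 4.29 (3.52) in iMet and 9.77 to 11.13 (10.35) in iHRAS* tumours, at least 19.2-fold lower. L1cam, of the same family, was at 6.07 to 7.63 (6.64) against 9.14 to 10.28 (9.84), 8.75-fold lower (−3.13 ± 0.27), and a further relative, Chl1, was at least 2.84-fold lower. Cadm4 and Cadm1, adhesion molecules of glia and synapses, were lower by 3.19 ± 0.65 and 1.49 ± 0.32. In each of these 5 genes the groups did not overlap, as was so for 388 of the 782 genes called lower. Uchl1, a deubiquitinase abundant in neurons, was at least 8.41-fold lower, and the neurofilament gene Nefl had medians of 5.77 and 11.97 without overlap. Lgi4, which takes part in myelination, was lower by 2.84 ± 0.56. The kinase gene Prkcb, of the protein kinase C family, was 4.61-fold lower, at 7.54 to 8.47 (8.03) against 9.89 to 10.66 (10.07).

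Axon guidance genes went both ways. Of 19 semaphorins, plexins and neuropilins 3 (15.8%) were lower and 2 (10.5%) higher, near the 9.7% and 11.2% of all tested genes. Sema3b, a secreted repellent, was at 2.11 to 6.47 in iMet and 7.80 to 9.26 in iHRAS* tumours, lower by 4.10 ± 0.63. The membrane-bound Sema5a was at 6.79 to 9.48 (8.67) against 5.37 to 6.38 (5.66), higher by 2.56 ± 0.41, and Sema3a was higher by 1.68 ± 0.33. Dpysl3, which relays semaphorin signals in growth cones, was bright in both models, at 11.76 to 12.06 (11.94) against 9.15 to 10.74 (10.30), and 3.50-fold higher, in contrast to Crmp1 of the same family, which was lower by 2.57 ± 0.56. Slit3, a ligand of Robo receptors, was lower by 3.29 ± 0.90.

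**Figure D3:**
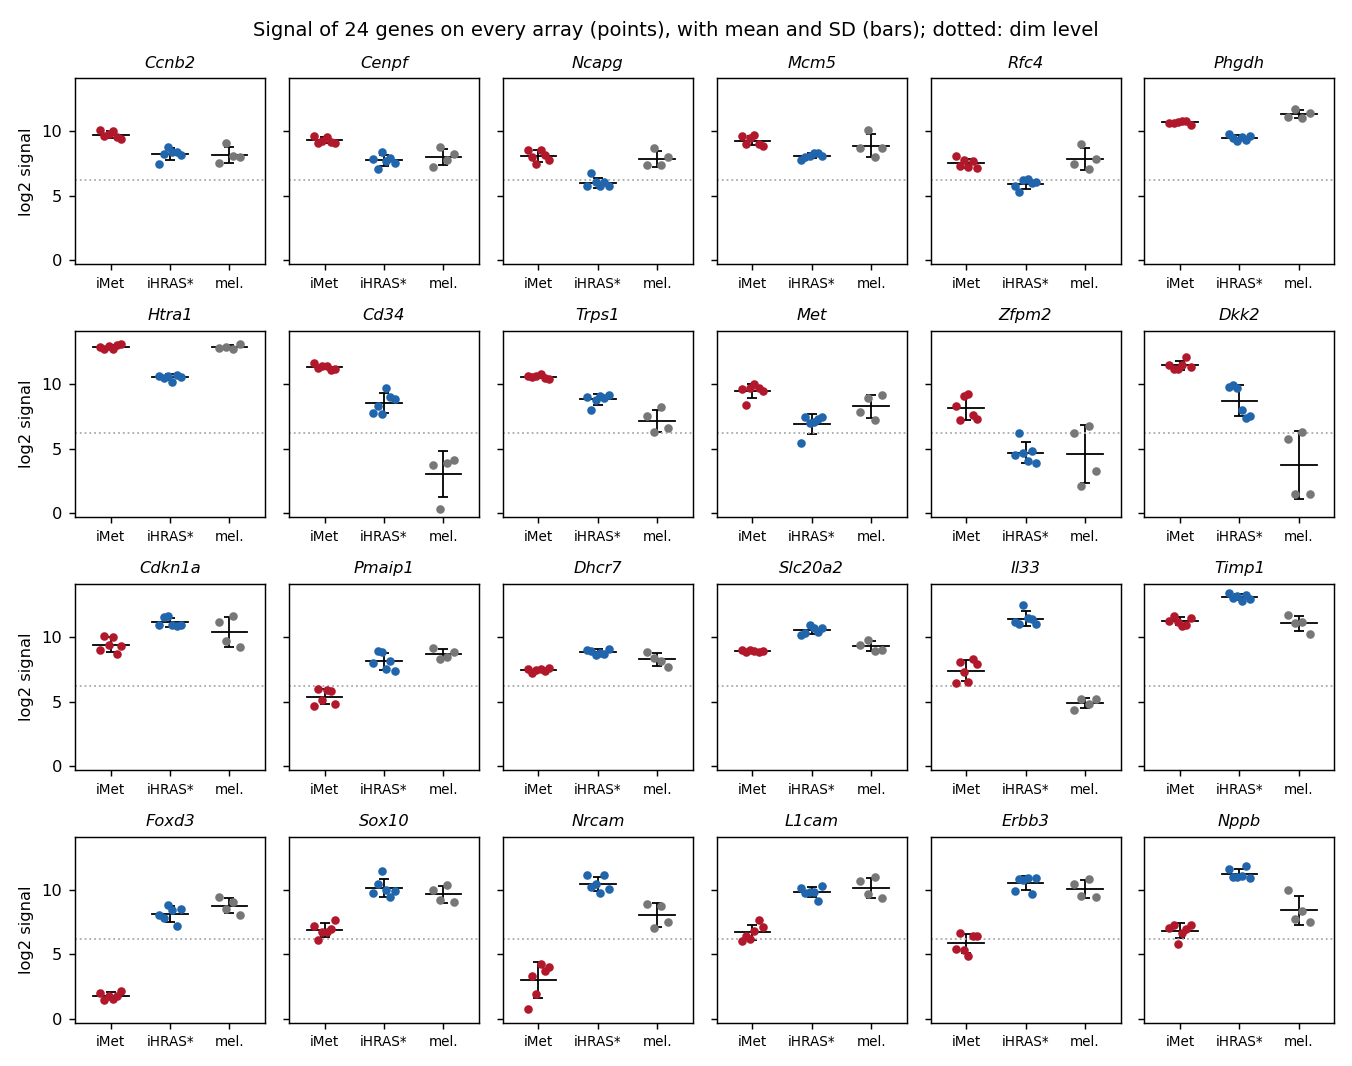
Log2 signal of 24 genes on each of the 6 iMet, 6 iHRAS* and 4 melanocyte (mel.) arrays (points), with group means and SD (bars); the dotted line is the dim level of 6.21. The 6 genes of the top row, Ccnb2 to Phgdh, do not overlap between the models and are higher in iMet tumours, and genes such as Foxd3, Nrcam and Erbb3 are near or under the dotted line in iMet tumours.

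Growth factor families changed within themselves. The ErbB receptors bind EGF-like ligands or neuregulins, and 5 of 10 tested receptor, ligand and regulator genes were lower and 3 higher (median −0.67). Erbb3, the neuregulin receptor, was at 4.89 to 6.62 (5.92) in iMet and 9.68 to 10.92 (10.82) in iHRAS* tumours, without overlap and above the dim level on 3 of the 6 iMet arrays, and its partner Erbb2 was lower by 0.97 ± 0.19. The ligands Btc (−2.70 ± 0.33), Hbegf (−2.42 ± 0.45) and Ereg (−1.38 ± 0.25) were lower. The ligand Epgn, at or under the dim level in every iHRAS* tumour and at 6.29 to 6.98 in iMet tumours, was at least 1.25-fold higher, and the inhibitor of the receptors Errfi1 was higher by 1.13 ± 0.29. Lrig1, another inhibitor, was called higher too, but in only 7 of 12 fits.

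The ligand gene Gdnf and the co-receptor gene Gfra1 were both lower. GDNF supports neurons and acts through the co-receptor GFRA1 and the kinase RET. Gdnf was at 4.96 to 6.95 (5.83) in iMet and 7.97 to 9.17 (8.57) in iHRAS* tumours, lower by 2.54 ± 0.35, and Gfra1 was at 4.43 to 6.01 (5.18) against 7.92 to 9.69 (8.45), at least 5.58-fold lower. The neurotrophin receptor Ngfr was at least 4.38-fold lower. Gfra4, a co-receptor for another ligand of the family, was higher by 0.84 ± 0.16. Over the list of 12, 3 genes (25%) were lower and 2 (16.7%) higher, against 9.7% and 11.2% of all tested genes. Fgf13, an intracellular member of the FGF family, was at least 2.75-fold lower and the receptor Fgfr1 was higher without overlap, at 11.30 to 12.53 (12.21) against 10.63 to 11.25 (10.88).

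Cytokines of the interleukin-6 family, which signal through gp130 to STAT3, and their feedback inhibitors were lower. Of 16 tested genes 7 were lower and 0 higher (median −0.51). Clcf1 was at 6.50 to 7.84 (6.95) in iMet and 8.62 to 9.98 (9.11) in iHRAS* tumours, 4.57-fold lower, and Il11 and Lif were lower by 2.47 ± 0.63 and 0.86 ± 0.23. The feedback inhibitors Socs3 and Socs1 were lower by 0.81 ± 0.18 and 0.81 ± 0.20. Il33, an alarmin released by damaged cells and a member of the interleukin-1 family, was 16.2-fold lower, at 6.45 to 8.27 (7.59) against 10.99 to 12.50 (11.27). Nppb, the precursor of a natriuretic peptide, showed a similar separation, at 5.78 to 7.30 (7.01) against 10.95 to 11.83 (11.04), and was 21.2-fold lower (adjusted p = 1.7e-06).

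Genes that respond to ERK, the last kinase of the RAS pathway, were lower in 8 of 24 cases and higher in 2 (median −0.18, or 0.04 with the values as deposited); the count of lower genes was 4 to 5 without iMet array 1, 3 or 5. Spry2, a feedback inhibitor of receptor signalling, was at 7.59 to 8.34 (8.02) in iMet and 8.77 to 9.46 (8.99) in iHRAS* tumours, lower by 1.04 ± 0.16. Plaur, the urokinase receptor, was lower by 0.85 ± 0.19, and Myc was higher by 0.65 ± 0.18 (called in 11 of 12 fits). Hedgehog genes also divided: the ligand Dhh, made by Schwann cells, was at least 3.67-fold lower and the receptor Ptch1, itself a target of the pathway, lower by 1.72 ± 0.34, while Gas1, a co-receptor, was higher by 1.62 ± 0.27 and the transducer Smo by 0.55 ± 0.15.

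Of 27 WNT ligands, receptors and antagonists 6 were lower and 4 higher. The secreted antagonist Dkk2 was at 11.15 to 12.14 (11.42) in iMet and 7.38 to 9.95 (8.85) in iHRAS* tumours, 6.72-fold higher, and another antagonist, Sfrp1, was at 6.01 to 6.83 (6.49) against 8.13 to 10.78 (8.57), 5.75-fold lower. Nkd2, an intracellular antagonist, was lower by 3.51 ± 0.38. The R-spondin receptors Lgr6 and Lgr5, found in hair follicle stem cells, were lower by 1.83 ± 0.25 and 1.65 ± 0.32. In the Notch pathway the target Hes1 was lower by 1.00 ± 0.19, whereas Rbpj, the DNA-binding partner of Notch, was 2.48-fold higher, at 10.85 to 11.39 (11.22) against 9.55 to 10.42 (9.84). Insulin-like growth factor binding proteins were lower for Igfbp5 (−3.60 ± 0.66), Igfbp3 (−1.45 ± 0.34) and Igfbp4 (−0.34 ± 0.08) and higher for Igfbp6 (1.01 ± 0.23).

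Transcription factors of several families separated the models. Sox2, a factor of neural progenitors, was at −1.96 to 3.93 (0.23) in iMet and 6.24 to 9.52 (8.16) in iHRAS* tumours, at least 3.41-fold lower, and Pax3 of the neural crest was at least 1.88-fold lower. Of 8 tested T-box and GATA genes with their cofactors 3 were higher and 1 lower. Gata3 was at 7.28 to 8.02 (7.76) against 3.70 to 6.91 (6.13), higher by 1.98 ± 0.46, and the GATA-like factor Trps1 at 10.41 to 10.79 (10.58) against 7.99 to 9.15 (8.96), 3.38-fold higher. The GATA cofactor Zfpm2 was higher by 3.46 ± 0.45 and its paralogue Zfpm1 lower by 1.06 ± 0.25. The homeobox genes Hoxb2 and Hoxb3, neighbours in a HOX cluster, were both higher, Hoxb2 by 3.67 ± 0.76 and Hoxb3, at or under the dim level in every iHRAS* tumour, at least 2.14-fold. Irx1 and Irx2, also neighbours, were higher by 2.26 ± 0.39 and 2.09 ± 0.29 and Irx5 by 1.03 ± 0.27, while Irx3, beside Irx5, was lower by 1.25 ± 0.31.

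Among 20 nuclear receptors 5 (25%) were lower and 1 (5%) higher, against 9.7% and 11.2% of all tested genes. The clock repressor Nr1d1 was at 6.71 to 8.30 (7.72) in iMet and 8.72 to 9.41 (9.02) in iHRAS* tumours, lower by 1.41 ± 0.26, and its opponent at the same sites, Rora, was lower by 1.60 ± 0.33. Nr4a1, an immediate early gene, and the vitamin D receptor Vdr were lower by 1.44 ± 0.25 and 1.20 ± 0.22, and Esrra by 0.93 ± 0.17. The glucocorticoid receptor Nr3c1 was the one that was higher, by 0.74 ± 0.20, and Fkbp5, a known target of that receptor, was higher by 0.95 ± 0.20. Ahr, the aryl hydrocarbon receptor, was lower by 1.45 ± 0.22, and Cyp1b1, a known target of it, by 2.55 ± 0.71 (called in 11 of 12 fits). Id4, an inhibitor of basic helix-loop-helix factors, was 17.0-fold lower, at 3.42 to 7.78 (6.63) against 9.69 to 11.74 (10.07), and its difference was −1.26 with the marker means as covariates.

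Many serine proteases were lower. Of 19 tested kallikreins and other serine proteases, with their regulators, 11 were lower and 2 higher (median −1.22). Prss12, a protease of synapses, was lower by 3.96 ± 0.75 and the epithelial Prss22 by 1.70 ± 0.24. Pcsk5, a convertase that activates growth factor precursors, was at 1.46 to 6.18 (5.80) in iMet and 7.42 to 9.16 (8.52) in iHRAS* tumours, at least 4.67-fold lower. Plat, the tissue plasminogen activator, was lower by 1.22 ± 0.20. Htra1, a secreted protease that cleaves matrix and TGF-beta proteins, went against the group with little spread, at 12.72 to 13.09 (12.91) against 10.15 to 10.74 (10.62), 5.08-fold higher (difference 2.34 ± 0.12, adjusted p = 3.7e-07), the smallest adjusted p among genes that were higher.

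Metalloproteases and their inhibitors divided. The collagenases Mmp1a and Mmp1b, whose genes are close copies, were lower without overlap, Mmp1b at least 2.19-fold and Mmp1a at 2.84 to 4.92 (4.02) in iMet and 8.66 to 10.98 (9.69) in iHRAS* tumours. Timp1, an inhibitor of such enzymes, was lower with them, at 10.87 to 11.66 (11.21) against 12.77 to 13.45 (13.10). Adam12 was at 9.38 to 10.76 (10.14) against 7.27 to 9.21 (8.24), 3.75-fold higher, and Adam8 was higher by 1.15 ± 0.26, whereas Adam10, the sheddase of many receptors, was lower by 0.58 ± 0.10. Over 35 tested genes 6 (17.1%) were lower and 3 (8.57%) higher, against 9.7% and 11.2% of all tested genes.

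Matrix genes followed no single direction either. Ogn, a small leucine-rich proteoglycan, was at 8.80 to 12.04 (11.33) in iMet and 4.78 to 7.38 (6.47) in iHRAS* tumours. Col1a1, the main collagen of skin and here a fibroblast marker, was bright in both at 12.74 to 13.63 and 12.82 to 13.69 and was not called. Col11a1 and Col12a1 were lower by 3.29 ± 0.72 and 2.52 ± 0.60, and the collagen count, 4 of 22 lower, was 2 without array 1 of either model and 7 without iHRAS* array 3. Among elastic fibre genes Fbn2 was lower by 5.01 ± 0.86 and Fbln1 by 2.69 ± 0.62, whereas Ltbp1, which tethers latent TGF-beta, was at 9.36 to 10.49 (10.09) against 8.34 to 9.06 (8.88), higher by 1.31 ± 0.20. Heparan sulphate carriers also divided, with the glypican Gpc1 3.82-fold lower and the syndecan Sdc1 lower by 1.17 ± 0.17, and Sdc2 and the polymerase gene Ext1 higher by 0.82 ± 0.21 and 1.16 ± 0.17. Smoc2 and Spon1, secreted matrix-associated proteins, were 13.3-fold and 8.95-fold lower, and Moxd1, a copper monooxygenase of the neural crest, was lower at 6.85 to 9.48 (7.87) against 10.90 to 12.58 (11.77).

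Keratinocyte genes spread widely among iMet tumours. The 14 tested keratins had a median difference of −2.32, yet 0 were called by limma (at an unadjusted p under 0.05, 6 were lower and 1 higher). Leaving out iMet array 2 or 6 gave 3 or 2 lower keratins, and leaving out iHRAS* array 2 gave 2 higher ones. Krt14, of the basal epidermis, was at 3.96 to 12.48 (9.19) in iMet and 9.30 to 13.10 (12.17) in iHRAS* tumours (−3.07 ± 1.39, adjusted p = 0.13), and Krt6b had the largest SD among iMet tumours, at 2.25 to 12.89 (5.63). The groups overlapped for both. Of 18 desmosome and cornified envelope genes 4 were lower; leaving out iMet array 4, iMet array 5 or iHRAS* array 6 left 2, and leaving out iMet array 2 or 6 gave 7 or 8. The list median moved from −2.18 to 0.53 with the marker means as covariates, of which keratinocyte genes are themselves part. The epithelial adhesion genes Cdh1, at 4.76 to 7.19 (5.97) against 7.77 to 10.75 (8.55), and Epcam, at 2.14 to 6.69 (5.38) against 7.88 to 11.54 (8.09), did not overlap and were lower by 2.86 ± 0.54 and 3.66 ± 0.79. With the covariates their differences were −1.71 and −3.70. The chemokine gene Cxcl14, made by keratinocytes and fibroblasts, was lower by 2.81 ± 0.53. The part of keratinocyte content in these decreases was not tested.

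Vessel genes were on the higher side. Of 31 tested endothelial and vessel wall genes 15 were higher and 0 lower (median 0.87), and 7 of the 8 endothelial markers were higher. Cd34, carried by vessel endothelium and by stem cells of the hair follicle, was at 11.13 to 11.68 (11.32) in iMet and 7.70 to 9.71 (8.60) in iHRAS* tumours, 6.86-fold higher (adjusted p = 0.00015). Emcn and Esam, of endothelial membranes, were higher by 1.46 ± 0.32 and 1.40 ± 0.31, and Lyve1, of lymphatic vessels and some macrophages, by 1.61 ± 0.29. The lymphatic growth factor Vegfd was 4.48-fold higher, at 8.57 to 10.03 (9.03) against 6.10 to 8.21 (6.85). With the marker means as covariates, which hold 8 of these genes, the list median was −0.08, the difference of Cd34 3.10 and that of Vegfd 3.02. Of 26 genes of PDGF, KIT, CSF1, VEGF and angiopoietin signalling 8 were higher and 0 lower, and 4 or 5 were higher when any of iMet arrays 1, 2 and 5 or of iHRAS* arrays 2 to 5 was left out. Pdgfra, the PDGF receptor of mesenchyme, was at 12.11 to 12.61 (12.40) against 11.13 to 11.98 (11.40), and Csf1, the macrophage growth factor, was higher by 1.44 ± 0.37.

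Myeloid genes rested on fewer arrays. Of 38 tested macrophage and myeloid genes 7 were higher and 0 lower (median 0.71), but leaving out array 1, 2 or 3 of either model left 4, and without iHRAS* arrays 2 and 3 together 3 were higher and 5 lower. The mean of 6 macrophage markers was 10.35 to 11.06 on the iMet arrays and 8.61 to 10.53 on the iHRAS* arrays, lowest on iHRAS* arrays 2 and 3. Itgam was at 7.83 to 9.30 (8.36) in iMet and 5.70 to 7.45 (7.18) in iHRAS* tumours, higher by 1.47 ± 0.34. Of 18 tested chemokines 6 were higher and 1 lower (median 0.0065), and 2 or 3 were higher when any of iMet arrays 1, 2, 3 and 5 or of iHRAS* arrays 1 and 4 was left out. Ccl2, which draws monocytes, was higher by 1.67 ± 0.39, and Cxcl12 was at 10.44 to 11.55 (10.93) against 5.95 to 10.05 (9.13), higher by 2.38 ± 0.62. Ltc4s, which makes leukotriene C4, and Cysltr1, a receptor of that leukotriene and its products, were higher by 2.88 ± 0.27 and 1.49 ± 0.27. Of 18 MHC and antigen processing genes 0 were called (limma; 3 lower and 0 higher at an unadjusted p under 0.05; median −0.44), and 12 were lower without iHRAS* arrays 2 and 3. Fabp4, of adipocytes and capillary endothelium, was higher by 3.42 ± 0.74.

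**Figure D4:**
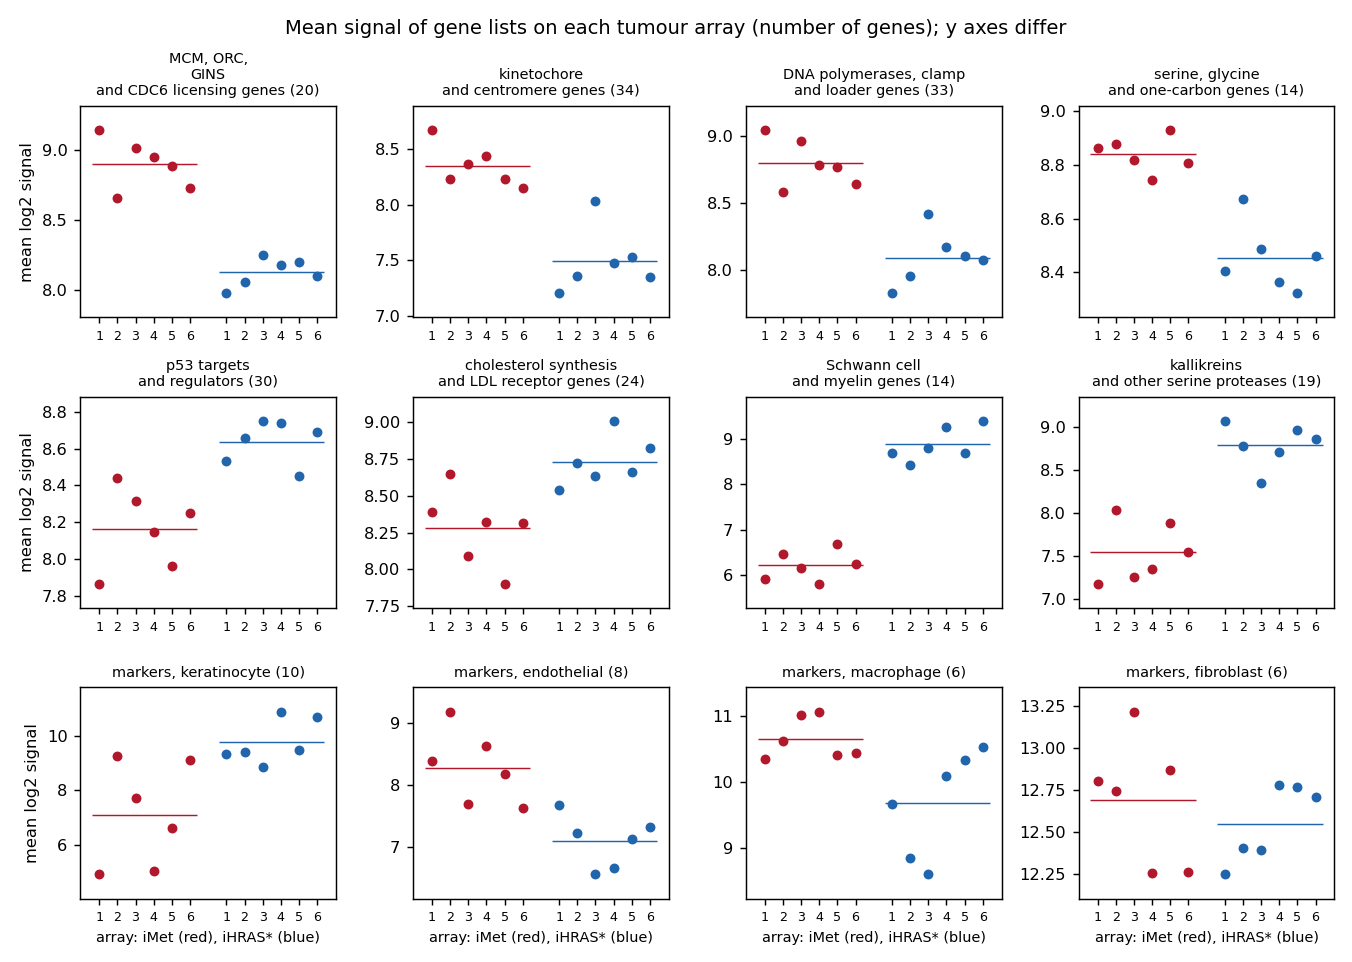
Mean log2 signal of 12 gene lists or marker sets on each iMet (red) and iHRAS* (blue) array, with the number of genes in parentheses and horizontal lines at group means; vertical axes differ between panels. The cell division panels separate the groups array by array, the keratinocyte markers spread most among iMet arrays, and the macrophage markers are lowest on iHRAS* arrays 2 and 3.

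Genes on one side of the dim level in all arrays of each model give a further view. There were 16 genes above it in all 6 iMet tumours and at or under it in all 6 iHRAS* tumours, and 36 with the reverse pattern. Among the former, Angptl7, an angiopoietin-like factor, was at least 6.63-fold higher and Ankrd6, a WNT pathway protein, at least 2.47-fold. Cenpk, Cip2a, Exo1, Kif18a, Kifc1 and Ndc80, also among them, act in division or DNA repair. They were grouped after the list was seen, and the share of such genes among all tested genes was not counted. Among the latter, Aldh1a3, which makes retinoic acid, was at least 4.42-fold lower, and Mlph and Myo5b, whose products belong to the machinery that carries vesicles along actin, at least 3.33-fold and 3.49-fold lower.

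Imprinted genes, which are read from 1 parental copy, were lower in 6 of 18 tested cases (33.3%) and higher in 1 (median −0.65). Of all tested genes 9.7% were lower. Phlda2 was at 1.81 to 4.34 (3.16) in iMet and 6.99 to 9.66 (7.53) in iHRAS* tumours, at least 3.34-fold lower, Ndn was lower by 3.32 ± 0.80 and Sgce by 1.68 ± 0.20. Dlk1 was at 6.31 to 11.34 (6.65) against 10.37 to 12.52 (10.95), and its neighbour Meg3 at 7.57 to 11.53 (8.50) against 10.20 to 11.89 (11.01; called in 9 of 12 fits); for both, 1 iMet tumour or more lay among the iHRAS* tumours. Mest was higher by 2.16 ± 0.59. The maternal and paternal imprints were not measured.

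The level of whole chromosomes differed between single arrays. Each gene's signal was taken relative to its median over the 12 tumour arrays. For each array, the median over a chromosome's tested genes was then taken relative to the array's median over all genes. This gave 240 medians over 8048 genes with a known chromosome. Of these, 15 lay beyond 0.15 in either direction, and the others lay between −0.15 and 0.13. The largest was chromosome 5 in iMet tumour 5, at 0.45, where 83.6% of 537 genes were above 0 on this scale. Chromosome 13 was at 0.43 in iMet tumour 6 and 0.28 in iMet tumour 4, and chromosome 8 at 0.29 in iMet tumour 4. When each of these chromosomes was divided into 4 parts of neighbouring genes, all 4 parts were raised, by 0.21 to 0.56. Among iHRAS* tumours, tumour 3 was at 0.26 on chromosome 10 and −0.27 on chromosome 16, and the last of the 4 parts of its chromosome 14 was at −0.83. The chromosomes were examined after the values were seen, and DNA copy number was not measured.

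**Figure D5:**
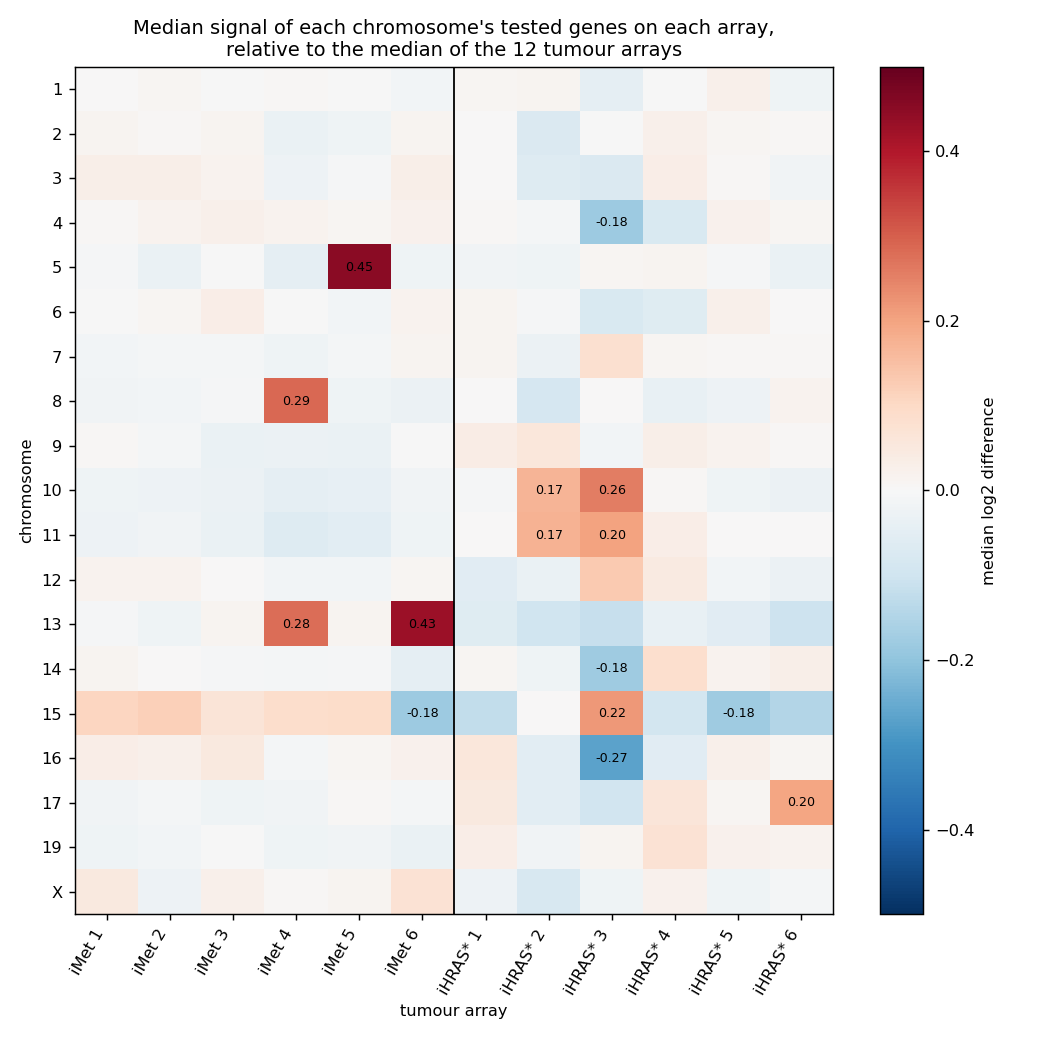
Median log2 signal of the tested genes of each chromosome (rows, chromosome 18 not shown) on each tumour array (columns). Values are relative to each gene's median over the 12 tumour arrays and to the array's median over all genes. Red is above and blue below, and values beyond 0.15 are printed. Chromosome 5 in iMet tumour 5, chromosome 13 in iMet tumours 4 and 6 and chromosome 8 in iMet tumour 4 stand out.

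On chromosome 13, 70 of 287 tested genes (24.4%) were higher in iMet tumours and 14 (4.88%) lower, with a median difference of 0.23. Over all tested genes 11.2% were higher and 9.7% lower. Without iMet arrays 4 and 6 together 39 genes of chromosome 13 were higher and its median was 0.10. The count of higher genes over all chromosomes was 905 in the comparison itself and 714 in that setting. Chromosome 8 had 59 of 429 genes (13.8%) higher, and 38 without iMet array 4, where the count over all genes was 796. On chromosome 15, 56 of 341 genes (16.4%) were higher. Without iHRAS* array 3 it had 84, and the count over all genes was 969. Of 7668 overlapping runs of 20 neighbouring tested genes, 185 held 7 or more that were higher and 49 held 7 or more that were lower. The run with the most higher genes, picked for that, starts at Zfpm2 on chromosome 15 and held 11 that were higher and 0 lower, among them Trps1, Ext1 and the translation factor genes Eif3e (called in 10 of 12 fits) and Eif3h. The run with the most lower genes, on chromosome 11 from Rtn4 to Slit3, held 9 lower and 3 higher. Chromosome 15 was at 0.07 to 0.12 in iMet tumours 1 to 5 and at −0.18 in iMet tumour 6. Of the genes described above as higher, Cenpk, Gas1, Gmnn, Irx1, Irx2, Ogn, Slc30a5 and Uqcrb lie on chromosome 13, and each stayed called without iMet arrays 4 and 6.

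The melanocyte arrays were set beside the tumours. Their mean over 6 melanocyte markers was 5.06 to 6.09, under the dim level, against 4.85 to 5.91 in iMet and 5.86 to 7.93 in iHRAS* tumours, and their mean over the keratinocyte markers was 6.81 to 9.13. On all 4 arrays Dct, Tyr, Tyrp1 and Mitf lay under the dim level, whereas Sox10 was at 9.04 to 10.41. Of the 905 genes that were higher in iMet tumours, the melanocyte mean lay between the tumour means for 424, above both for 278 and below both for 203, and it was nearer to the iMet mean for 525. Of the 782 that were lower, it lay between for 371, above both for 185 and below both for 226, and it was nearer to the iMet mean for 395.

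Met, the transgene of the iMet model, was at 8.39 to 9.98 (9.64) in iMet and 5.42 to 7.46 (7.18) in iHRAS* tumours. It was 5.78-fold higher (difference 2.53 ± 0.35, adjusted p = 0.00062) and was among the 22 genes still called higher with the marker means as covariates. Its ligand Hgf was at 6.17 to 8.63 (8.24) against 4.09 to 5.74 (5.10); it exceeded the dim level on 5 arrays only, so that Hgf was not in the fit, and a two-sided exact permutation test of the 6 against 6 arrays gave p = 0.0021645, the smallest that this design allows. Others that kept their call with the covariates were Htra1, Acpp, Cd34, Ift74, Jade1, Mcm6 and Prim1 among the higher, and Foxd3, Nrcam, Erbb3, L1cam, Sox10, Gdnf, Mmp1a, Timp1, Dhcr7, Nppb, Prkcb and Uchl1 among the 39 lower. The probe sets do not show whether Met signal came from the transgene or from the mouse's own gene.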

How the data were processed

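Biotin-labelled cRNA from 16 samples was hybridised to Affymetrix mouse arrays (M430A_2), per the labels' protocols. The authors deposited log2 signals of 22690 probe sets (−4.07 to 14.53); the summary of probes and the scaling of arrays are not given in the sources used here. Array medians ran from 6.56 to 7.28, so the 22626 probe sets other than controls were quantile normalized. Probe sets with 1 gene symbol (20380; 691 had several, 1555 none) were reduced to the brightest per gene over 16 arrays. Genes above the 40th percentile on at least 6 tumour arrays were fitted with limma 3.58.1 (R 4.3.3), without a block, and p-values were adjusted over all 8058 by the Benjamini-Hochberg method. The fit was tested on simulated data. The number of arrays limits the precision, and the table has no detection calls. Same-numbered samples of the groups did not deviate together (r = −0.23 to 0.14), so numbers were not taken to pair them. A list median is the median difference over its tested genes.

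The members and gene lists were chosen with earlier results of these data known, and patterns of the lists were corrected after their matches were seen. Genes were named by rule: the 30 largest increases and decreases without overlap, the 12 smallest p in each direction, up to 6 called members per list and direction, genes on opposite sides of the dim level, the most variable genes and a few fixed genes. Marker genes of the lineage and of fibroblasts are named besides. A result on a withheld item is not reported here.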

Additional observations from a re-analysis of the deposited data

Results flagged for a closer look

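Among the 440 sets of values examined for single genes in tumour groups of 6, 32 had 1 tumour farther from its nearest neighbour than Dixon's criterion allows, as had 4 of 94 sets of list means and 6 of 38 sets of chromosome medians. Chance flags about 1 in 20 such sets.

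In iMet tumour 1 this held for Kif18a at 7.32 (the other 5 at 6.26 to 6.50). In iMet tumour 2 this held for Lyve1 at 9.91 (the other 5 at 8.09 to 8.72), Met at 8.39 (the other 5 at 9.49 to 9.98) and Socs1 at 6.80 (the other 5 at 5.63 to 5.90). In iMet tumour 3 this held for Fbln1 at 8.65 (the other 5 at 7.51 to 7.88) and Fkbp5 at 11.67 (the other 5 at 10.88 to 11.15). In iMet tumour 4 this held for Adssl1 at 7.82 (the other 5 at 6.28 to 6.72) and Ptch1 at 7.89 (the other 5 at 6.89 to 7.17). In iMet tumour 5 this held for Dlk1 at 11.34 (the other 5 at 6.31 to 7.85), Irx5 at 6.82 (the other 5 at 8.04 to 8.44) and Scd2 at 10.94 (the other 5 at 11.27 to 11.44). It held in iMet tumour 5 also for Sdc1 at 10.20 (the other 5 at 10.86 to 11.19). In iMet tumour 6 this held for Hgf at 6.17 (the other 5 at 7.95 to 8.63), Hoxb3 at 8.31 (the other 5 at 6.90 to 7.31) and Pcsk5 at 1.46 (the other 5 at 5.24 to 6.18). It held in iMet tumour 6 also for Sema3a at 8.53 (the other 5 at 9.58 to 10.05). In iHRAS* tumour 1 this held for Ccna2 at 8.06 (the other 5 at 8.81 to 9.16), Itgam at 5.70 (the other 5 at 6.82 to 7.45) and Met at 5.42 (the other 5 at 6.99 to 7.46). In iHRAS* tumour 2 this held for Epcam at 11.54 (the other 5 at 7.88 to 8.18), Irx2 at 5.64 (the other 5 at 7.02 to 7.44) and Irx3 at 6.68 (the other 5 at 7.61 to 8.11). It held in iHRAS* tumour 2 also for Krt6b at 7.96 (the other 5 at 11.31 to 13.11), Ncapg at 6.74 (the other 5 at 5.73 to 6.08) and Trps1 at 7.99 (the other 5 at 8.75 to 9.15). In iHRAS* tumour 3 this held for Igfbp5 at 8.16 (the other 5 at 11.52 to 12.60) and Il33 at 12.50 (the other 5 at 10.99 to 11.47). In iHRAS* tumour 4 this held for Cadm1 at 10.61 (the other 5 at 8.88 to 9.52) and Cyp51 at 9.19 (the other 5 at 8.43 to 8.66). In iHRAS* tumour 5 this held for Ift74 at 7.58 (the other 5 at 7.99 to 8.04). In iHRAS* tumour 6 this held for Pmel at 7.93 (the other 5 at 6.22 to 6.78) and Tyr at 7.34 (the other 5 at 4.18 to 5.36).

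The mean of the list of cyclins, CDKs and mitotic kinases was 8.87 in iMet tumour 1 and 8.55 to 8.66 in the other 5 of its group. The mean of the list of mismatch, excision and end-joining repair genes was 7.25 in iHRAS* tumour 2 and 7.53 to 7.68 in the other 5 of its group. The mean of the list of imprinted genes was 8.77 in iMet tumour 5 and 7.63 to 7.98 in the other 5 of its group. The mean of the list of ERK feedback genes and targets was 8.89 in iMet tumour 5 and 9.19 to 9.31 in the other 5 of its group. Chromosome medians here are also relative to the array's median over all genes. The median of chromosome 2, relative to the tumour median, was −0.074 in iHRAS* tumour 2 and −0.0035 to 0.027 in the rest of its group. The median of chromosome 5, relative to the tumour median, was 0.45 in iMet tumour 5 and −0.047 to −0.0032 in the rest of its group. The median of chromosome 7, relative to the tumour median, was 0.081 in iHRAS* tumour 3 and −0.027 to 0.013 in the rest of its group. The median of chromosome 8, relative to the tumour median, was 0.29 in iMet tumour 4 and −0.03 to −0.0044 in the rest of its group. The median of chromosome 15, relative to the tumour median, was −0.18 in iMet tumour 6 and 0.065 to 0.12 in the rest of its group. The median of chromosome 16, relative to the tumour median, was −0.27 in iHRAS* tumour 3 and −0.058 to 0.055 in the rest of its group.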

How the results depend on the processing

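With the values as deposited, 1800 genes were higher and 447 lower, so that 80.1% of called genes were higher against 53.6%; the median of all genes was then 0.23 in place of 0.03, and directions near 0 are relative to that shift. With the values as deposited the medians of solute carriers (−0.15 to 0.09), ERK feedback genes (−0.18 to 0.04), metalloproteases (−0.13 to 0.09), nuclear receptors (−0.01 to 0.20), vacuolar ATPase and lysosomal genes (−0.15 to 0.03), glutathione genes (−0.08 to 0.07), semaphorins and plexins (−0.14 to 0.07) and Hedgehog genes (−0.26 to 0.12) changed sign. So did those of Notch genes (−0.12 to 0.12), heparan sulphate genes (−0.22 to 0.04) and elastic fibre genes (−0.08 to 0.16). The median of netrin, Slit and other guidance genes (−0.11 to 0.12) changed sign too, as did that of cytosolic ribosomal proteins (0.06 to −0.05) and those of some lists not described above. With keratinocyte and endothelial means as covariates 22 genes were higher and 41 lower, and the differences of Irx3 (0.0050), Krt14 (1.53), Krt6b (0.77) and Perp (0.16) had the opposite sign. Mitf, not called in any of these fits, was at −0.20 with the mean of all probe sets at −0.012 without iHRAS* arrays 2 and 3 and at −0.010 to 0.37 when 1 array was left out. The causes were not tested. Leaving out 1 array gave 662 to 969 higher and 603 to 805 lower genes. With the replicate number as a block, 621 were higher and 565 lower, and 14 of the named genes (201 kept theirs or stayed uncalled) lost their call. Centring on medians, other filters, the mean of probe sets, all 16 arrays, array weights, a trended prior and leaving out iHRAS* arrays 5 and 6 kept both counts within 1.5 times, as did the settings chosen after seeing the data, without iHRAS* arrays 2 and 3 (927 and 862) and without iMet arrays 4 and 6 (714 and 622). The difference of Hgf kept its sign and side of the threshold, and that of Cdkn2a its sign, in all settings run. Signals near the dim level carry little order.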

Other observations

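Genes of the primary cilium, the sensory projection whose assembly needs intraflagellar transport, were looked at after their values were seen and so carry no test as a group. Ift74, Ift57, Ift122, Ift80, Ift81, Iftap, Kif3a and Ttc8 were called higher in iMet tumours and Kif3c lower, while Ift140, Ift172, Ift20, Ift22, Ift27, Ift46, Ift88, Bbs2, Bbs9 and Kif3b were not called. Ift74, a core transport subunit, and Ift57 kept their call when the keratinocyte and endothelial means entered as covariates.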
